A study of Homo sapiens with 2 samples.

Results

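The genes of the cytosolic ribosomal proteins were examined in VMRC-LCD cells, an established lung adenocarcinoma cell line with neuroendocrine (NE) differentiation, after siRNA transfection against the lncRNA *DRAIC*. Members were the rows of the array table whose annotated symbol is RPL or RPS followed by a number, with *RPLP0*, *RPLP2* and *RPSA* admitted by name, and Y-linked genes and S6 kinases left out. This gave 51 of 21448 rows, each with a different gene, of which 25 encode proteins of the large subunit (RPL), 19 encode proteins of the small subunit (RPS) and 7 are L paralogs, gene copies whose symbols end in L or L1. The 25 and 19 genes are called core genes below. RefSeq lists 83 protein-coding genes under the same rule, and the other 32, *RPLP0*, *RPLP2* and *RPSA* among them, were not analysed here because no row was named for them.

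Cells received si-NC, a negative control siRNA, or si-*DRAIC*2, the siRNA no2 against *DRAIC*, both at 20 nmol/L with 72 h of incubation, and each condition was measured on 1 Human Clariom S array. No difference below has a replicate check, no p-value is given, and an effect of this siRNA's sequence cannot be told apart from an effect of losing *DRAIC*. The authors deposited log2 signals that had been quantile normalized between the arrays, and every difference given here was taken as si-*DRAIC*2 minus si-NC on that log2 scale. Genes were called higher or lower past a linear fold of 1.5, the threshold of the study's methods. After such a normalization a change shared by all transcripts would not show, and in bulk RNA fewer cells with a transcript and less transcript per cell cannot be told apart.

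Over all rows the median difference was −0.011 and the SD 0.38. No row was named for *DRAIC*, so the knockdown was not checked on these arrays. The epithelial markers *EPCAM*, *CDH1*, *KRT8* and *KRT18* had signals between 12.28 and 16.10 in si-NC. The 5 measured NE markers (*INSM1*, *CHGA*, *CHGB*, *SYP* and *NCAM1*) lay between 8.46 and 15.19, whereas *PTPRC* and *CD3E* of blood cells and *PECAM1* and *CDH5* of endothelium were at 5.80 or below. Of the fibroblast markers, *COL1A2* had 8.73 and *COL1A1* and *DCN* 5.25 and 4.24. Between the arrays the NE markers *INSM1*, *NCAM1*, *CHGA* and *CHGB* differed by −0.48, −0.36, −0.25 and −0.027, and *SYP* by 0.095. The epithelial markers *CDH1*, *KRT18*, *KRT8* and *EPCAM* differed by 0.39, 0.24, 0.067 and 0.0028. The part of such shifts in the results below was not tested.

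The ribosome is built from a small subunit, which reads the mRNA, and a large subunit, which joins amino acids. Each ribosomal protein is needed in about the same amount, and the genes are among the most strongly transcribed of growing cells. Most of their mRNAs start with a run of pyrimidines, the TOP (terminal oligopyrimidine) tract, through which mTOR signaling and the RNA-binding protein LARP1 control their translation.

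Core ribosomal protein genes had slightly higher signals in si-*DRAIC*2, and 1 of them passed 1.5-fold. Of the 44 core genes, 41 had a difference above 0 and 3 below it. Their median difference was 0.16, which is 1.12-fold, and they ranged from −0.09 to 0.63 with an SD of 0.14 between genes. *RPL19* was the gene past 1.5-fold, and none was lower. Over all rows 5.13% were more than 1.5-fold higher, 6.26% more than 1.5-fold lower and 48.4% higher by any amount.

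**Figure D1:**
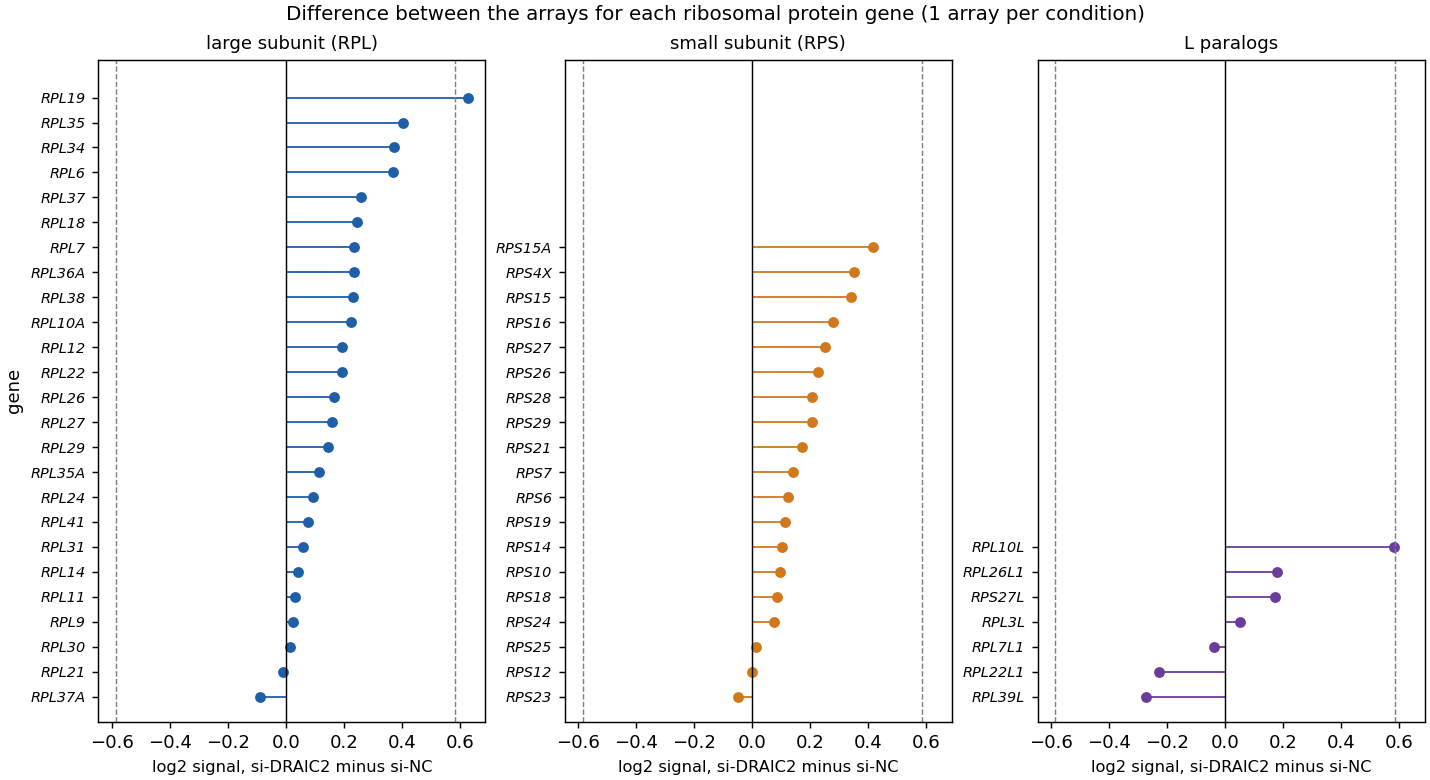
Difference in log2 signal (horizontal axis, si-*DRAIC*2 minus si-NC) of each ribosomal protein gene, 1 point per gene and 1 array per condition, for the large subunit, the small subunit and the L paralogs. The dashed lines mark 1.5-fold. Of the 44 core genes 41 lie right of 0, *RPL19* lies past the line, and the L paralogs spread to both sides, with *RPL10L* just inside the line.

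Most of these genes are bright on the array, and bright rows as a whole had differences above 0. Of the 44 core genes, 40 lay in the top 5% of rows by mean signal. For comparison, the 578 other rows with a mean log2 signal between 14.08 and 16.11, the middle of the range of the core genes, were used. These had a median difference of 0.063 and an SD of 0.24, 63.1% of them were higher by any amount, and 1.56% passed 1.5-fold upward and 0.519% downward, together 2.08%. The core genes lay 0.10 above this median, with 34 of 44 above it. The comparison rows had a median signal of 14.66 against 15.32 in the core genes, so brightness is not matched between them. With 1 array per condition the size of the gap between their differences was not tested.

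**Figure D2:**
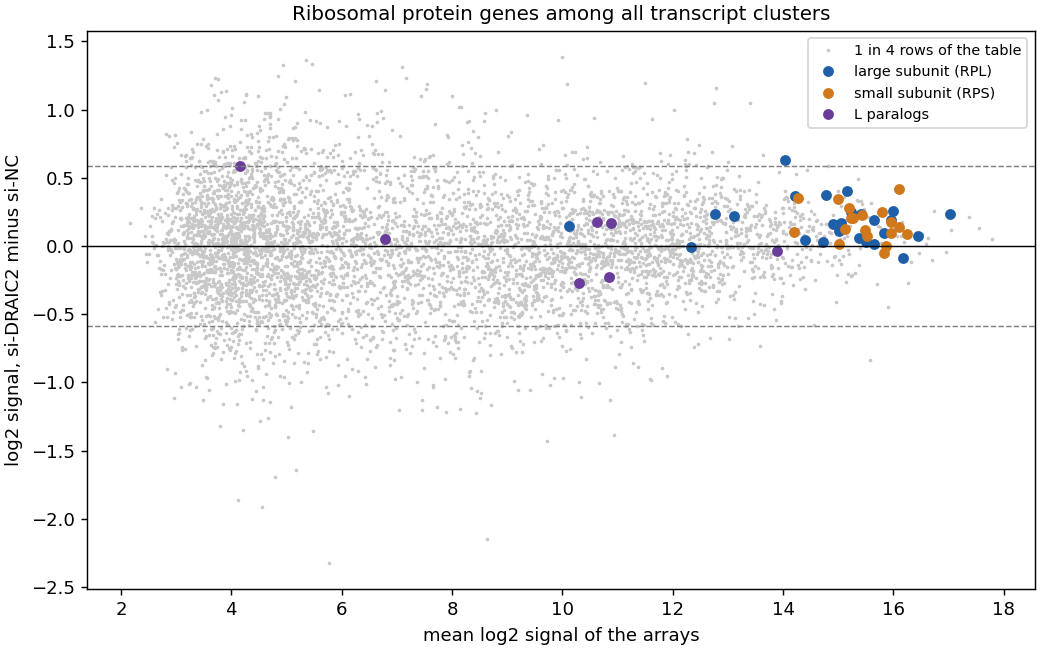
Difference in log2 signal (vertical axis) against the mean log2 signal of both arrays (horizontal axis). Grey points are 1 in 4 rows of the table, coloured points the ribosomal protein genes, and dashed lines mark 1.5-fold. Of the 44 core genes 40 sit in the top 5% of signals, most of them above 0, *RPL29*, *RPL21*, *RPL36A* and *RPL10A* lie at lower signals, and *RPL10L* and *RPL3L* lie below the median signal of the table.

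The subunits had similar differences. The 25 core RPL genes had a median of 0.17, 23 of them above 0 and quartiles of 0.060 and 0.24. The 19 core RPS genes had a median of 0.14, 18 of them above 0 and quartiles of 0.091 and 0.24. The RPS median was thus 0.024 below the RPL median, and the ranges of both subunits overlapped along most of their length. With the trend over signal subtracted by loess the medians were 0.11 and 0.061, a gap of −0.053, and with *RPL21* left out the gap was −0.038. A difference above 0.3 was found for 4 RPL and 3 RPS genes, one between 0 and 0.1 for 7 RPL and 5 RPS genes.

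In the large subunit, *RPL19*, whose protein sits beside the exit of the peptide tunnel, had the largest difference. Its log2 signal went from 13.72 in si-NC to 14.35 in si-*DRAIC*2 (0.63), which is 1.55-fold. Among the 578 comparison rows, 5 had a larger difference, though the mean signal of *RPL19*, 14.03, lies just below their range. The call is close to the threshold. The difference fell to 0.58, short of 1.5-fold, once the trend of the differences with signal had been subtracted by loess. It fell to 0.56 once the median of the comparison rows had been set to 0. *RPL35*, another protein at the tunnel exit, followed, from 14.96 in si-NC to 15.36 in si-*DRAIC*2 (0.41). *RPL34* went from 14.59 to 14.96 (0.37) and *RPL6* from 14.03 to 14.40 (0.37). *RPL37*, a small zinc-binding protein, had 15.86 and 16.12 (0.26), and *RPL18*, mutated in some families with Diamond-Blackfan anemia, 15.11 and 15.36 (0.25). These genes are named for the largest rises of the subunit, so their shared direction was set by that choice. Apart from *RPL19* all were within 1.5-fold.

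The exit of the peptide tunnel, where chaperones and the secretory machinery dock, was represented by 5 of the 9 listed genes. Beside *RPL19* and *RPL35*, *RPL22* went from 15.86 in si-NC to 16.05 in si-*DRAIC*2 (0.19). *RPL26* went from 14.97 to 15.14 (0.17), and *RPL31* from 15.35 to 15.41 (0.060). All 5 were above 0, with a median of 0.19. Among all core genes 41 of 44 were above 0, and among all rows 48.4%. The genes at the tunnel exit spread widely, since *RPL31* was near the median difference of the 578 comparison rows and *RPL19* near their upper end.

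*RPL11* and *RPL5* bind the 5S rRNA and, when free of the ribosome, the ubiquitin ligase MDM2. *RPL11* had nearly the same signal on both arrays, 15.48 and 15.52, with a difference of 0.032, and *RPL5* has no value here. *RPL38*, which in mouse is needed for the translation of a set of Hox mRNAs, had 16.90 and 17.14 (0.23). *RPL10A* of the mobile L1 stalk had a difference of 0.22 and *RPL12*, at the base of the acidic stalk, 0.19. At the other end of the order, *RPL37A*, a zinc-binding protein, was the core gene with the lowest difference, with 16.21 in si-NC and 16.12 in si-*DRAIC*2 (−0.089).

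*RPL21* had 12.34 in si-NC and 12.33 in si-*DRAIC*2 (−0.0082). Its row stands apart from the other members, because its identifier names chromosome 10 whereas RefSeq places the gene on chromosome 13. In the other 50 members both chromosomes matched, as they did in 99.96% of the named rows that could be compared. RefSeq lists 137 pseudogenes named after *RPL21*, the highest number of any core gene, and whether the row reads the gene or a copy was not tested. Without it the core median was 0.17.

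In the small subunit, *RPS15A* had the largest difference. It went from 15.90 in si-NC to 16.32 in si-*DRAIC*2 (0.42, 1.34-fold). Of the 578 comparison rows, whose range of signal ends just below that of *RPS15A*, 25 had a larger difference. *RPS4X*, the X-linked copy of a gene that also has Y-linked copies, had 14.09 and 14.44 (0.35). *RPS15*, whose tail reaches the decoding centre, had 14.82 and 15.16 (0.34), and *RPS16*, which contacts the tRNA in the P site, 15.06 and 15.34 (0.28). *RPS27*, a zinc-binding protein, had 15.66 and 15.91 (0.25). These 5 are named for the largest rises of the subunit, so their shared direction was set by that choice. No core RPS gene passed 1.5-fold.

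Members at the decoding centre did not share a direction. *RPS23*, which also lies there, was the RPS gene with a difference below 0, with 15.85 in si-NC and 15.80 in si-*DRAIC*2 (−0.049). At the exit of the mRNA channel, *RPS26* went from 15.32 to 15.55 (0.23) and *RPS28* from 15.13 to 15.33 (0.21). *RPS6*, the substrate of the S6 kinases downstream of mTOR, had 15.06 and 15.19 (0.12). *RPS14*, the gene of the 5q− syndrome, had 14.15 and 14.25 (0.10), and *RPS10*, which is ubiquitinated on collided ribosomes, 15.91 and 16.01 (0.096). *RPS12* of the beak of the subunit and *RPS25*, which serves initiation at internal sites, were at 0.00094 and 0.012.

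Mutations of many of these genes cause Diamond-Blackfan anemia, in which red cell precursors fail. Among all core genes 41 of 44 were above 0 and 1 passed 1.5-fold, against 48.4% and 11.4% of all rows. Of the 17 genes listed for this disease 14 were measured, none passed 1.5-fold, and all 14 were above 0. Their median was 0.16, the same as in all core genes, and they ranged from 0.032 for *RPL11* to 0.41 for *RPL35*. *RPS19*, the gene most often mutated, had 15.42 in si-NC and 15.54 in si-*DRAIC*2 (0.11). The X-linked genes *RPS4X* and *RPL36A*, 2 of 4 listed, had a median of 0.29.

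The L paralogs went both ways. Such copies arose by duplication or retrotransposition, and some are known to replace their parent protein in particular tissues. Of the 7, 4 had a difference above 0 and 3 below it, the median was 0.053 and the SD 0.29, and none passed 1.5-fold. This split is near that of the whole table, where 48.4% of rows were higher by any amount. The SD over all rows was 0.38, and 11.4% of them passed 1.5-fold in either direction. The sign of the L paralog median is not settled. It was −0.038 without the dim rows of *RPL10L* and *RPL3L*, and −0.0093 with the median of the comparison rows set to 0. *RPL39L*, a copy known from male germ cells and some tumours, had the lowest difference of all members, with 10.43 in si-NC and 10.16 in si-*DRAIC*2 (−0.27). *RPL22L1*, whose level is held down by the RPL22 protein in mouse, came next with 10.96 and 10.73 (−0.23). *RPL7L1*, a relative of an assembly factor of the yeast ribosome, had 13.91 and 13.87 (−0.038). These 3 genes were slightly dimmer on the si-*DRAIC*2 array, against 3 of the 44 core genes.

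The other L paralogs were brighter in si-*DRAIC*2. *RPS27L* had 10.80 in si-NC and 10.97 in si-*DRAIC*2 (0.17), and *RPL26L1* had 10.53 and 10.71 (0.18). *RPL3L*, a gene of skeletal and heart muscle, had 6.75 and 6.80 (0.053). *RPL10L*, a gene of the male germ line, had 3.87 and 4.45 (0.58), a value just inside the 1.5-fold line. Its mean signal lay at percentile 19.6 of all rows, and with 32 added to both linear signals its difference was 0.21.

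Parent and paralog were both measured in 5 of 8 pairs, here with *RPL36AL*, whose symbol the rule does not match. In the signals as deposited, the paralog had the smaller difference in 4 of the 5, and in 2 the signs were opposite. *RPL22* had a difference of 0.19 against −0.23 for *RPL22L1*, a gap of −0.42 on the log2 scale, and *RPL7* had 0.24 against −0.038 for *RPL7L1*, a gap of −0.28. The pairs *RPL26* and *RPL26L1* (0.17 and 0.18), *RPS27* and *RPS27L* (0.25 and 0.17) and *RPL36A* and *RPL36AL* (0.23 and 0.19) lay within 0.1 of each other. Apart from *RPL36AL*, these paralogs were dimmer than their parents, and bright rows as a whole had differences above 0. With the loess subtracted, *RPS27L* (0.19) lay above *RPS27* (0.18) and *RPL26L1* (0.20) above *RPL26* (0.10). *RPL22L1* stayed below *RPL22* (−0.21 and 0.11) and *RPL7L1* below *RPL7* (−0.082 and 0.17). The pair with *RPL36AL* was not recomputed. The parents *RPL3*, *RPL10* and *RPL39* have no value here.

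**Figure D3:**
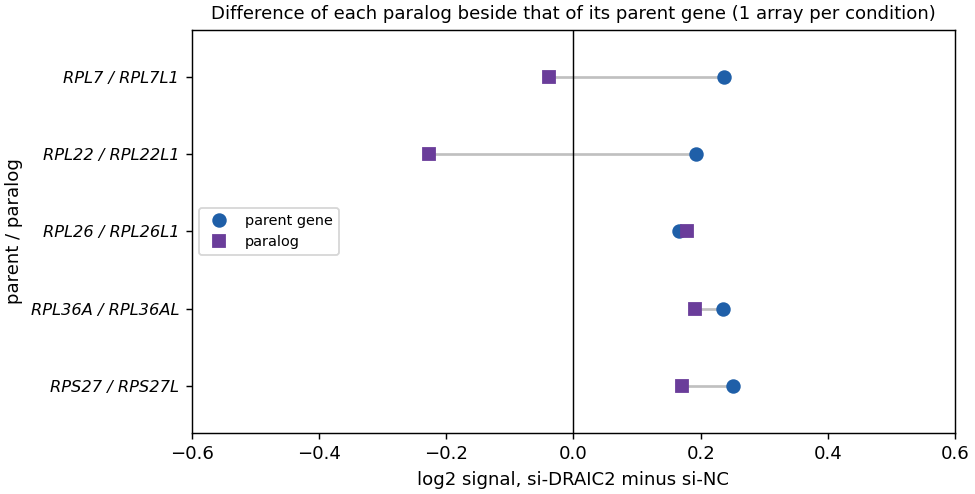
Difference in log2 signal (horizontal axis, si-*DRAIC*2 minus si-NC) of 5 parent genes (circles) and their paralogs (squares), 1 array per condition. *RPL22* and *RPL22L1* lie on opposite sides of 0 with the widest gap, *RPL7* and *RPL7L1* come next, and the other 3 pairs lie close together.

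The start sites of some core genes and paralogs are shown because core genes and paralogs differed in how often a short motif of the TOP tract was found. RefSeq promoters (GRCh38.p14) were found for 45 of the 51 members. The motif CTTTC, searched on the sense strand within 10 bases of an annotated start, was present in 20 of 40 core genes (12 of 22 RPL and 8 of 18 RPS), in 0 of 5 L paralogs and in 3.90% of all 27305 genes with a promoter. It is a short core of the TOP tract, and a gene without these letters can still have such a tract, as the pyrimidines of *RPL26* and of the paralog *RPL22L1* show. Each line gives 15 bases before and 15 bases from the annotated start, 5′ to 3′, with CTTTC in capitals where it was found; for a gene with several starts, one that holds the motif was taken. The first 6 are the core RPL genes with the 4 largest differences, with and without the motif, and the lowest core gene of each subunit, and the rest are parents and paralogs.
*RPL19* (chr17:39200308-39200337, plus strand): gagcgagctCTTTCCTTTCgctgctgcggc
*RPL35* (chr9:124861943-124861972, minus strand): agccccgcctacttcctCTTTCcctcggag
*RPL34* (chr4:108620561-108620590, plus strand): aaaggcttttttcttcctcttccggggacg
*RPL6* (chr12:112411428-112411457, minus strand): tatttgtatcctcagtgaatcagaaccaga
*RPL37A* (chr2:216498829-216498858, plus strand): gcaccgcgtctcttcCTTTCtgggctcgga
*RPS23* (chr5:82278340-82278369, minus strand): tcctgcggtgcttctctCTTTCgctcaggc
*RPL22* (chr1:6199581-6199610, minus strand): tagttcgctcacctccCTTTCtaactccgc
*RPL22L1* (chr3:170870181-170870210, minus strand): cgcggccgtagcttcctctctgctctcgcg
*RPS27* (chr1:153990747-153990776, plus strand): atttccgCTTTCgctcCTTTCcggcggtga
*RPS27L* (chr15:63157463-63157492, minus strand): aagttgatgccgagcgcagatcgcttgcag
*RPL26* (chr17:8383179-8383208, minus strand): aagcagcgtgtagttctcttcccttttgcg
*RPL26L1* (chr5:172958714-172958743, plus strand): agtcttccaggggtcggcgaacgaaacgcg

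Core genes with and without this motif overlapped in their differences. At the upper end *RPL19* and *RPL35* carry it and *RPL34*, *RPL6*, *RPS4X* and *RPS15* do not, and at the lower end *RPL37A*, *RPS23* and *RPL21* carry it. *RPS15A* (0.42) had no promoter to search. For *RPL21* the promoter is that of the gene, which RefSeq places on chromosome 13, whereas its row names chromosome 10. The 20 core genes with CTTTC had a median difference of 0.11, from −0.089 to 0.63, and the 20 without it 0.18, from 0.012 to 0.37. The motif CCGGAAG, bound by ETS factors such as GABPA, was found on either strand of the 300-base window in 14 of 40 core genes against 12.2% of all genes, and their median was 0.14 against 0.18 in the rest. GATGGC, part of the binding motif of YY1, was found in 12 of 40 against 15.4% of all genes, with medians of 0.21 and 0.13. These ranges overlapped widely for each motif.

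Other properties of the core genes went only weakly with the difference. Across the 44 core genes, which share the arrays and are not independent replicates, Spearman's rho with the mean signal was −0.19, with the gene length −0.050 and with the number of RefSeq pseudogenes 0.19. Core genes have between 5 and 137 named pseudogenes, with a median of 20.5. The 22 genes with at least that number had a median difference of 0.20 and the 22 with fewer 0.11, and probes that also read such copies cannot be told apart from those of the gene. Among chromosomes with at least 3 core genes, the median ran from 0.060 on chromosome 2 (3 genes, −0.089 to 0.14) to 0.25 on chromosome 19 (5 genes, 0.11 to 0.34), and the 4 genes on chromosome 17, *RPL19* among them, ranged from 0.16 to 0.63.

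Rows of ribosomal protein genes outside the symbol rule had values in the same range. *RPLP1*, a protein of the acidic stalk that recruits translation factors, had 16.50 in si-NC and 16.64 in si-*DRAIC*2 (0.15), and *FAU*, which encodes a small subunit protein fused to a ubiquitin-like protein, 12.55 and 12.86 (0.31). The 3 rows of read-through transcripts that begin in a ribosomal protein gene had 0.28 for *RPS10-NUDT3*, 0.29 for *RPL36A-HNRNPH2* and 0.38 for *RPL17-C18orf32*. All of these were brighter in si-*DRAIC*2 and within 1.5-fold.

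Ribosomal proteins of mitochondria, a separate set of nuclear genes, also had mostly higher signals in si-*DRAIC*2. Their 74 genes had a median of 0.18, against 0.16 in the core cytosolic genes. Of the 74, 1 gene, *MRPL19* (0.63), passed 1.5-fold, against 5.13% of all rows that were more than 1.5-fold higher. Of the 74, 55 (74.3%) were above 0, against 48.4% of all rows. The 2 sets differ in brightness, with a median signal of 10.56 against 15.32. Their differences were not compared at equal signal. Their spread was wider, with an SD of 0.22 against 0.14.

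**Figure D4:**
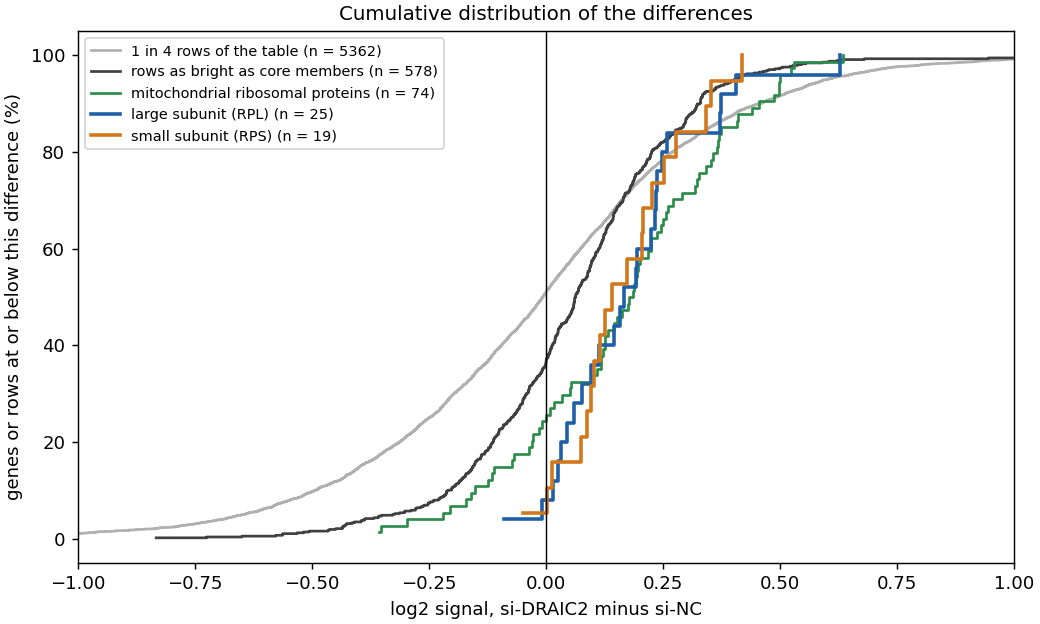
Cumulative share (vertical axis, in percent) of genes or rows at or below each difference in log2 signal (horizontal axis) for core RPL genes, core RPS genes, mitochondrial ribosomal protein genes, the 578 comparison rows with signals in the middle of the range of the core genes and 1 in 4 rows of the table. Both subunits follow nearly the same curve, and at the median and both quartiles their curves lie right of that of the comparison rows.

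Among the factors that work with the ribosome, 6 of 10 listed genes of elongation were measured, *EEF2K*, a kinase of an elongation factor, among them. All 6 were above 0, with a median of 0.21 with or without *EEF2K*. *EEF1A2*, the tissue-restricted form of the factor that delivers tRNA, passed 1.5-fold, from 7.61 to 8.21 (0.60). *EEF1A1*, the common form, had 17.24 and 17.42 (0.18), and *EEF1D*, a subunit of its exchange factor, 13.54 and 13.97 (0.44). The 13 eIF3 subunits had a median of −0.0067, with 6 above 0 and none past 1.5-fold. Over all rows 48.4% were above 0, and 11.4% passed 1.5-fold in either direction. *EIF3E*, another TOP mRNA, had 14.99 and 14.76 (−0.23), and *EIF3B* 10.91 and 11.35 (0.43).

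The 15 measured genes with TOP mRNAs other than ribosomal proteins, of 21 listed, were split, with 8 above 0 and 7 below and a median of 0.12. Of all rows 48.4%, and of the comparison rows in the signal range of the core genes 63.1%, were higher by any amount. *EEF1A1* and *EEF1D* count both here and among the elongation genes. *NACA* and *BTF3*, the subunits of the complex that binds nascent chains at the tunnel exit, had differences of 0.36 and 0.27, and *NPM1*, a nucleolar protein, 0.33. *EIF4B* and *HNRNPA1* lay at −0.019 and −0.0091. None of these genes passed 1.5-fold. Of the core ribosomal protein genes 3 of 44 lay below 0 in the signals as deposited. With the loess subtracted 11 lay below 0, and with the median of the comparison rows set to 0, 10 did. The other TOP genes were not recomputed in these ways.

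Regulators of TOP mRNAs and factors that handle ribosomal proteins were within 1.5-fold. Of 11 regulators 3 were above 0 and 8 below, with a median of −0.051. *LARP1* had 14.65 on both arrays with a difference of −0.00087, *MTOR* 10.85 and 10.95 (0.10), and *RPS6KB1*, a kinase of RPS6, 14.17 and 13.75 (−0.42). Of 14 measured chaperones and importers of free ribosomal proteins 10 were above 0, with a median of 0.24, or 0.19 without *NACA* and *BTF3*, which the list of TOP mRNAs also holds. *PDCD2L*, a relative of the RPS2 chaperone PDCD2, had 10.36 and 10.92 (0.56), and *RPS19BP1*, which binds RPS19, 7.74 and 8.25 (0.51). Of 13 measured genes of ribosome quality control, *NEMF*, which marks stalled nascent chains, passed 1.5-fold, from 6.45 to 7.32 (0.87). Its si-NC signal lay below the si-NC median of all rows, 7.03. The quality control list had a median of 0.00093. Over all rows 48.4% were above 0, and 11.4% passed 1.5-fold in either direction.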

How the data were processed

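Total RNA of 1 si-NC and 1 si-*DRAIC*2 culture was hybridised to Human Clariom S arrays. The deposited log2 signals are the authors' SST-RMA output (Transcriptome Analysis Console), in which probe signals were background corrected, quantile normalized and summarized. The version, annotation and filters used were not given in the sources used here. No further scaling was applied, and precision is limited by having 2 arrays. Rows were named through the platform annotation, and all 51 members matched their RefSeq symbol by gene identifier. Groups of genes are described by counts past 1.5-fold and medians beside the same over all rows and over rows between the 10th and 90th percentile of the mean signal of the core genes. Named are each gene past 1.5-fold, the 5 largest rises and falls per subunit, each L paralog with its parent and members of small role groups; other genes were chosen after their values were seen. Members and lists were chosen with earlier results of these data known. Alternatives were a median difference of 0, a loess (span 0.3), an offset of 32, rows at or above the median signal, a 2-fold threshold and added genes; centring on bright rows and leaving out *RPL21* were chosen after seeing the data. The counting was tested on simulated data. Plots were drawn with matplotlib 3.10.9, the loess came from statsmodels 0.14.6 and tables were handled in pandas 2.3.3 under Python 3.11.15.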

Additional observations from a re-analysis of the deposited data

How the results depend on the processing

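No paired analysis was possible because each condition has 1 array, and no replicate could be left out. With no replicate spread, a median was taken as moved when it shifted by 0.1 or more on the log2 scale, and none did. That limit is wide beside a core median of 0.16, so it does not show that the medians are stable. The RPS median counted as not moved although it went from 0.14 to 0.061 with the loess. The median of the L paralogs changed sign, from 0.053 to −0.038 among rows at or above the median signal and to −0.0093 with bright rows centred. The number of core RPL genes past 1.5-fold fell from 1 to 0 with the loess subtracted, with a 2-fold threshold, and with the median of the comparison rows set to 0. In that order *RPL19* had 0.58, 0.63 and 0.56. The number of higher L paralogs went from 0 to 1, *RPL10L*, with the median difference set to 0 (0.59) and with the loess (0.59). Core genes above 0 numbered 41 as deposited, 33 of 44 with the loess and 34 of 44 with bright rows centred, and the core median was then 0.10 in both. The RPS median was 0.061 and the RPL median 0.11 with the loess, a gap of −0.053 against −0.024 as deposited. The core genes lie near the top of the signal range, and the response of the probes there was not tested.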
